A study of Mus musculus with 2 samples.

Results

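The nuclear genes of respiratory complex I, the NADH dehydrogenase of mitochondria, were described in long-read RNA sequencing of the mouse adrenal gland. They were chosen by symbol alone, as annotated genes named Nduf followed by a, b, c, s, v or ab and a number for structural subunits, or by af and a number for assembly factors. In GENCODE M21, 48 genes carry such a symbol. Of these, 45 are protein-coding, 37 of them structural subunits and 8 assembly factors, and all 45 had reads in both libraries. The other 3 are processed pseudogenes. Ndufb4c had 2 reads in replicate 1 and 0 in replicate 2, Ndufs6b had 0 and 1, and Ndufa11b had none in either library. The members with reads were thus 47 of 17707 annotated genes with reads. Unless pseudogenes are named, values below are those of the 45 coding genes.

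The samples were adrenal glands of F1 hybrid females (strain B6CASTF1/J), aged 18 to 20 months, and the labels name no mutation, transgene or agent. There is 1 group of 2 libraries, biological replicates 1 and 2, each made from 1 µg of total RNA. The labels give each library a biosample of its own and both the same donor entry, so whether they come from different animals is unclear, and differences between them may be technical. Replicate 1 had 1412947 reads on annotated genes and replicate 2 had 933963. Levels are given as CPM (a gene's reads scaled to the same total of reads on annotated genes). Where no read was seen, the limit was set at 3 reads, which is 2.12 CPM in replicate 1 and 3.21 CPM in replicate 2. Intervals are exact 95% binomial intervals and cover counting error only. Of gene reads, marker genes of the adrenal cortex took 5.76% (replicate 1) and 5.49% (replicate 2), and those of the medulla 1.19% and 0.934%. In this whole tissue, a lower level can come from fewer cells of a type or from less RNA per cell, which cannot be told apart.

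Complex I takes electrons from NADH, passes them through flavin and iron-sulfur clusters to ubiquinone, and pumps protons across the inner mitochondrial membrane. Its L shape has a matrix arm, which holds the redox centres, and a membrane arm, which holds the proton channels. Core subunits of the matrix arm are encoded in the nucleus and those of the membrane arm in mitochondrial DNA, while accessory subunits surround both. Assembly factors build or modify the complex and are not part of the finished enzyme. In the adrenal cortex, mitochondria also house the cholesterol side-chain cleavage and 11β-hydroxylase steps of steroid synthesis.

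Structural subunit transcripts were several times as abundant as those of the 8 assembly factors chosen by symbol, in both libraries. Complex I genes together had 15520 reads in replicate 1, which is 1.10% of gene reads (interval 1.08 to 1.12%), and 10676 in replicate 2, which is 1.14% (interval 1.12 to 1.16%). The structural median was 258 CPM in replicate 1 and 277 CPM in replicate 2, against an assembly factor median of 36.4 and 40.7 CPM. The ratio of medians was 7.07 in replicate 1 and 6.82 in replicate 2. All 37 structural genes stood above the highest assembly factor in each library. Assembly factors held 2.67% of the reads of these genes in replicate 1 and 2.70% in replicate 2. Each long read stands for 1 cDNA molecule, so CPM was not divided by length in these comparisons. Per kb of the most abundant annotated transcript, the structural median was 316 CPM per kb in replicate 1 and 302 in replicate 2, against 24.4 and 27.4 for assembly factors. The ratio then was 12.9 in replicate 1 and 11.0 in replicate 2. On that scale 35 of 37 structural genes stood above Ndufaf8, the highest assembly factor, and Ndufb2 and Ndufs4 did not. Genes are not replicates of a condition, so these ratios carry no test.

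**Figure D1:**
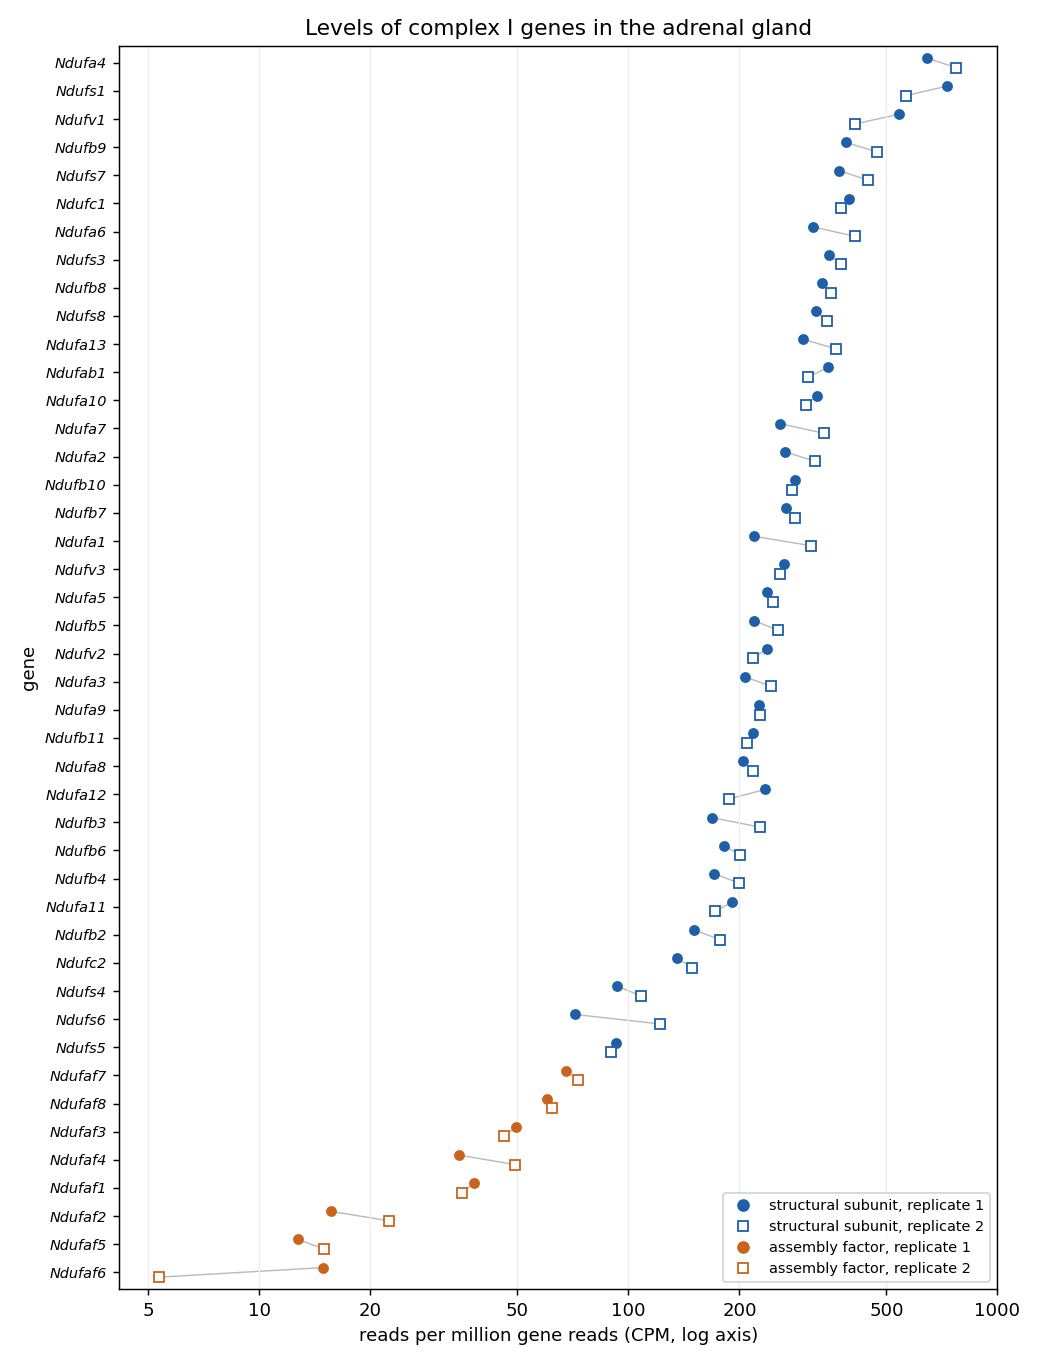
Levels of coding complex I genes in CPM (log axis), with replicate 1 as a filled circle above replicate 2 as an open square, structural subunits in blue and assembly factors in orange, each set ordered by its mean. None of the 8 assembly factors chosen by symbol reaches the range of the structural subunits. That range began at 71.5 CPM in replicate 1 and 89.9 CPM in replicate 2.

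Among structural genes, the highest levels included those of Ndufa4 and the core subunit Ndufs1. Ndufa4, whose product was long counted in complex I and is now placed in complex IV, had 643 CPM in replicate 1 and 773 CPM in replicate 2. Ndufs1, the iron-sulfur subunit with the largest coding sequence of the set, had 729 and 564 CPM. Their means were 708 ± 92.2 and 647 ± 116 CPM (SD, n = 2 each), and their order was not the same in the libraries. Ndufv1, which binds the flavin and receives electrons from NADH, had 541 CPM in replicate 1 and 412 CPM in replicate 2. Ndufb9, an accessory subunit of the membrane arm, had 389 and 471 CPM. The core subunit gene Ndufs7 had 371 and 446 CPM. Ndufc1, of the membrane arm, had 395 and 377 CPM, and Ndufa6, an accessory subunit of the matrix arm, had 316 and 411 CPM. From Ndufv1 to Ndufa6, the ranges of neighbours in the order overlapped. Per kb, Ndufa4 stayed highest, with 1054 CPM per kb in replicate 1 and 1267 in replicate 2, whereas Ndufs1, with its annotated length of 2661 nt, had 274 and 212, under the structural median.

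The lowest structural genes belonged to both arms. Ndufs5, an accessory subunit on the intermembrane-space side, had 92.7 CPM in replicate 1 and 89.9 CPM in replicate 2. Ndufs6, a zinc-binding accessory subunit of the matrix arm, had 71.5 and 122 CPM. Ndufs4, also of the matrix arm and mutated in some human patients with Leigh syndrome, had 93.4 and 108 CPM. Ndufc2 had 135 and 149 CPM and Ndufb2 had 151 and 177 CPM, both of the membrane arm. The value of Ndufs5 is uncertain, because the processed pseudogene BC002163 matches 99.4% of an alignment of 319 nt that covers its coding sequence. BC002163 was given 78 reads in replicate 1 and 65 in replicate 2, beside 131 and 84 reads for Ndufs5, and how reads divide between such near copies was not tested. In all, 13 members have 16 annotated copies with at least 90% identity over at least 80% of the coding sequence. Only 6 of those copies had reads, 84 in replicate 1 and 73 in replicate 2 together, nearly all on BC002163.

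The 8 assembly factors spanned 12.7 to 67.9 CPM in replicate 1 and 5.35 to 72.8 CPM in replicate 2. Ndufaf7, whose human counterpart is a protein methyltransferase, was highest, with 67.9 and 72.8 CPM. Ndufaf8, which in human cells works with NDUFAF5, had 60.2 and 62.1 CPM. Ndufaf3 had 49.5 and 46.0 CPM and its partner Ndufaf4 had 34.7 and 49.3 CPM. Both help to assemble the part of the complex around the quinone site. Ndufaf1, which acts on early membrane arm intermediates, had 38.2 and 35.3 CPM. Ndufaf2, a late factor related in sequence to the subunit Ndufa12, had 15.6 and 22.5 CPM. Ndufaf5, whose human counterpart hydroxylates an arginine of NDUFS7, had 12.7 and 15.0 CPM. Ndufaf6 had 14.9 CPM in replicate 1 (21 reads) and 5.35 CPM in replicate 2 (5 reads). Ndufaf7 and Ndufaf8 lay above the other 6 in both libraries, and Ndufaf2, Ndufaf5 and Ndufaf6 lay below the other 5.

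Other genes of the pathway gave a frame for these levels. The 13 further assembly genes read here took 0.127% and 0.104% of gene reads. They were led by Aifm1, needed for import of respiratory chain subunits, with 469 and 403 CPM, by Tmem70 with 307 and 244 CPM, and by Acad9 with 141 and 101 CPM, while Coa1 had 0 reads in both libraries. Unlike the 8 assembly factors chosen by symbol, Aifm1, Tmem70 and Acad9 lay within the range of structural subunits in both libraries. The 7 mitochondrially encoded subunit genes had 224 reads in replicate 1 and 139 in replicate 2. Of these, mt-Nd2 had 96 and 71 reads, mt-Nd1 63 and 32, mt-Nd4 36 and 25, and mt-Nd4l none. Every nuclear structural gene had more reads than mt-Nd2 in both libraries. The aligner and read filters are not given, and whether these counts reflect the levels of mitochondrially encoded transcripts in the tissue was not tested. Outside the symbol rule, Ndufb1-ps had 281 and 244 reads, at the level of a structural subunit, and the Ndufa4 paralogue Ndufa4l2 had 30 and 15. The 38 nuclear genes of complexes II to V took 2.61% and 2.52% of gene reads, led by the ATP synthase genes Atp5b (3957 and 3198 CPM) and Atp5a1 (3490 and 2609 CPM) and by Sdha (2210 and 1932 CPM).

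Each gene was compared between the libraries with an exact binomial test on its reads, given TMM-scaled totals and with Benjamini-Hochberg adjustment over the 11068 genes with at least 10 reads. Since both libraries belong to 1 group, the test sets library against library, and the only error behind its p-values is that of counting reads. Of the 45 genes, 9 passed at an adjusted p of 0.05 (20.0%), 3 higher and 6 lower in replicate 1. Over all genes tested 12.4% passed, with 6.21% higher and 6.20% lower in replicate 1. This background depends on the read minimum. With at least 50 reads, 4 of 42 complex I genes passed as higher and 7 as lower, against 10.4% and 9.78% of 6491 genes. The median log2 ratio (replicate 1 over replicate 2) was -0.07 over the 45 genes and 0.00 over all genes tested. The 9 genes are all structural, and 0 of 8 assembly factors passed. Assembly factors had 26 to 164 reads each over both libraries, against 215 to 1630 for structural genes. With so few reads only larger folds can pass, so these counts do not set the 2 kinds of gene apart. When the spread between the libraries was taken from their own common dispersion (a coefficient of variation of 21.5%), edgeR's exact test passed 0 of the 45 genes and 0.244% of all genes. None of the 45 reached an unadjusted p of 0.05 in that test. Scaled to the ERCC spike-in totals, 16 of the 45 genes passed as higher in replicate 1 and 0 as lower, against 20.0% and 2.36% of all genes. That scaling moves the median of all genes to 0.32, and the 45 genes stayed 0.07 below it on the log2 scale.

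The genes higher in replicate 1 included the core subunits Ndufs1 and Ndufv1 of the matrix arm. Ndufs1 had 1030 reads in replicate 1 and 527 in replicate 2, a fold of 1.32 (interval 1.19 to 1.47, exact binomial adjusted p = 5.90e-06). Ndufv1 had 764 and 385 reads, a fold of 1.34 (interval 1.19 to 1.52, exact binomial adjusted p = 6.16e-05), the largest ratio among genes with at least 100 reads. The core genes Ndufs3, Ndufs7, Ndufs8 and Ndufv2 did not pass, with log2 ratios between -0.24 and 0.15.

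The 6 genes lower in replicate 1 are Ndufa4 and 5 accessory subunits. Ndufs6 had the largest difference, with 101 reads in replicate 1 and 114 in replicate 2, a fold of 0.599 (interval 0.454 to 0.790, exact binomial adjusted p = 0.00352). Ndufa1, a small membrane arm subunit encoded on the X chromosome, had 309 and 292 reads, a fold of 0.715 (exact binomial adjusted p = 0.000965). Ndufb3, also of the membrane arm, had 238 and 212 reads, a fold of 0.759 (exact binomial adjusted p = 0.0354). Its call rests on partial reads, since on annotated transcripts alone its log2 ratio was -0.11 and it did not pass. The matrix arm genes Ndufa7 (364 and 316 reads) and Ndufa6 (446 and 384 reads) had folds of 0.779 and 0.785, and Ndufa4 (908 and 722 reads) had a fold of 0.850. Accessory genes had a median log2 ratio of -0.18 over 9 in the matrix arm and -0.11 over 19 in the membrane arm. The most extreme log2 ratio, 1.40 for Ndufaf6, rests on 26 reads and did not pass (exact binomial adjusted p = 0.149).

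Transcript length moved with this difference. Of 25 genes whose most abundant annotated transcript is shorter than 1000 nt, 0 passed as higher and 6 as lower in replicate 1, with a median log2 ratio of -0.11. Of 19 genes with longer transcripts, 3 passed as higher and 0 as lower, with a median of 0.13. Over all genes tested, the 1068 short ones had a median of -0.20, with 3.28% higher and 12.5% lower, and the 9288 long ones had 0.04, with 6.84% higher and 5.49% lower. Across 44 of the genes, which share both libraries, log2 length and log2 ratio gave a Pearson's r of 0.28 and a Spearman's rho of 0.43. Across the 10356 genes with a length the same values were -0.05 and -0.12. The makeup of the tissue moved too. The 6 skeletal muscle markers had 1047 reads in replicate 1 and 1 read in replicate 2, all of them on Acta1, Ckm, Atp2a1, Myh1, Myh4 and Tnnt3. The 6 fat markers took 0.577% of the reads in replicate 1 against 0.429% in replicate 2, with Ucp1 at 1687 and 602 CPM. Plin1 (452 and 245 CPM) and Adipoq (280 and 221 CPM) were also higher in replicate 1. Cidea (637 and 637 CPM) and Fabp4 (488 and 483 CPM) were close between the libraries. Cfd (2227 and 2103 CPM) differed little but passed as higher in replicate 1 (exact binomial adjusted p = 0.0451). Of the 5 cortex markers, 2 passed as higher and 2 as lower in replicate 1. Cyp11b1, the 11β-hydroxylase, had a log2 ratio of 0.62, while Star, the cholesterol carrier of steroid synthesis, had -0.55 and the cortex regulator Nr5a1 had -0.61. Muscle and brown fat are rich in mitochondria, and the part of length or of these tissues in the 9 calls was not tested. Of the 38 genes of complexes II to V, 7 passed as higher and 9 as lower in replicate 1, with a median log2 ratio of -0.10. That is 42.1%, against 12.4% of all genes tested, of which 6.21% were higher and 6.20% lower. With at least 50 reads, 10.4% of all genes passed as higher and 9.78% as lower.

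**Figure D2:**
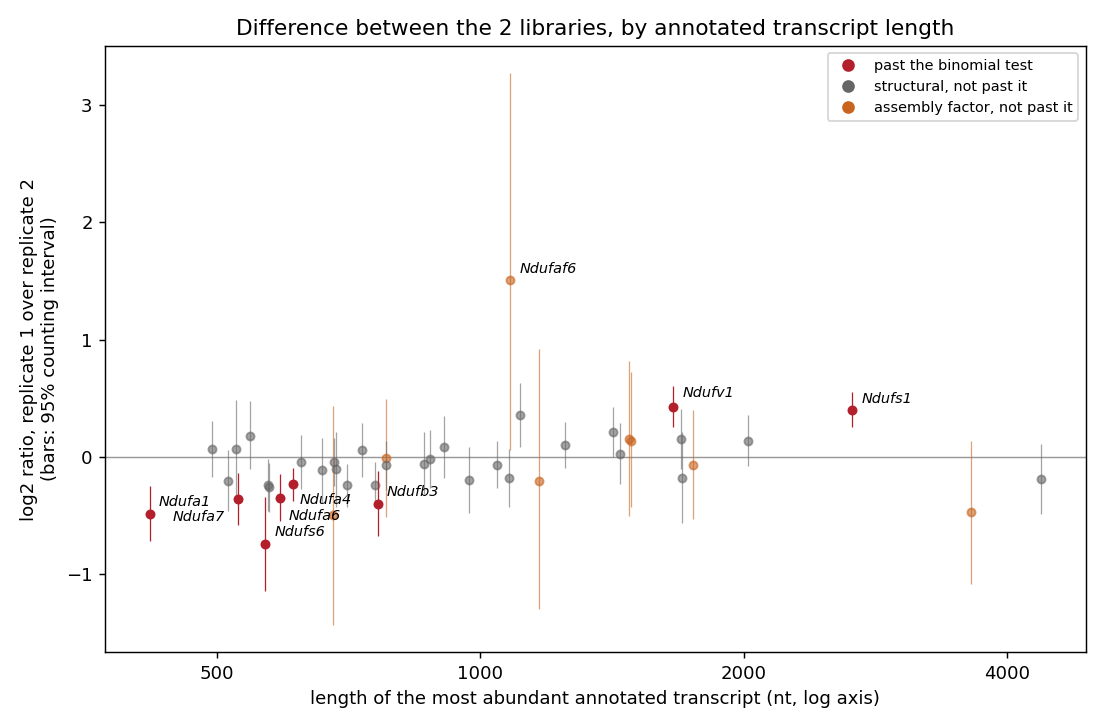
Log2 ratio of replicate 1 over replicate 2 for coding complex I genes against the length of the most abundant annotated transcript in nt (log axis), with 95% counting intervals and without the prior count, so that Ndufaf6 stands a little above its value in the text. Genes past the binomial test are red and named, and Ndufaf6 is named for its wide interval. For Ndufa13 the shorter of its 4-exon models gives the length. The 6 genes below 0 that passed lie under 1000 nt and those above 0 that passed lie over it.

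Most complex I genes were read as 1 dominant isoform. Isoforms were told apart by their introns, and 43 genes could be measured with a minimum of 20 reads per library, all but Ndufaf5 and Ndufaf6. The most abundant isoform held a median of 90.3% of a gene's reads in replicate 1 and 88.8% in replicate 2, against 74.6% and 70.7% over 6413 genes measured the same way. Its mean share was over 90% in 21 of the 43 genes (48.8%, against 17.4% of all genes) and under 50% in 2 (4.65%, against 24.2%). By set, the median share was 92.5% and 89.4% over 37 structural genes, and 72.2% and 62.8% over 6 assembly factors. Ndufb11 and Ndufb7 of the membrane arm were among the most uniform, at 98.4% and 96.9% for Ndufb11 and 98.7% and 96.2% for Ndufb7. Between libraries the share differed in 1 of 43 genes by Fisher's exact test with adjustment over all genes (2.33%, background 2.21%).

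That gene is Ndufa13, also known as Grim19, which has a role in cell death beside its place in the membrane arm. Its main isoform had 408 of 421 reads in replicate 1 (96.9%, interval 94.8 to 98.3%) and 341 of 341 in replicate 2 (100%, interval 98.9 to 100%, Fisher's exact test adjusted p = 0.0264). The isoform is not the annotated transcript, which had 0 reads in both libraries. It has 4 exons where the annotated form has 5, and holds the whole coding sequence (chr8:69894221-69901635). The deposited models of this isoform have the same introns and differ in the 5′ end of their first exon on the minus strand. In replicate 1 that exon runs to 69903518, across the annotated first exon (chr8:69901881-69902558) and the intron after it, for a model of 2359 nt. In replicate 2 it ends at 69901732, without the annotated first exon, for a model of 573 nt. Near the threshold stood Ndufaf7, with a main isoform share of 86.5% and 64.7% (Fisher's exact test adjusted p = 0.0547), and Ndufs7, with 61.8% and 51.3% (Fisher's exact test adjusted p = 0.0569). With at least 50 reads asked for in each library, which leaves 39 of these genes and 3705 in all, those 3 genes passed, against 4.75% of all genes at that minimum.

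**Figure D3:**
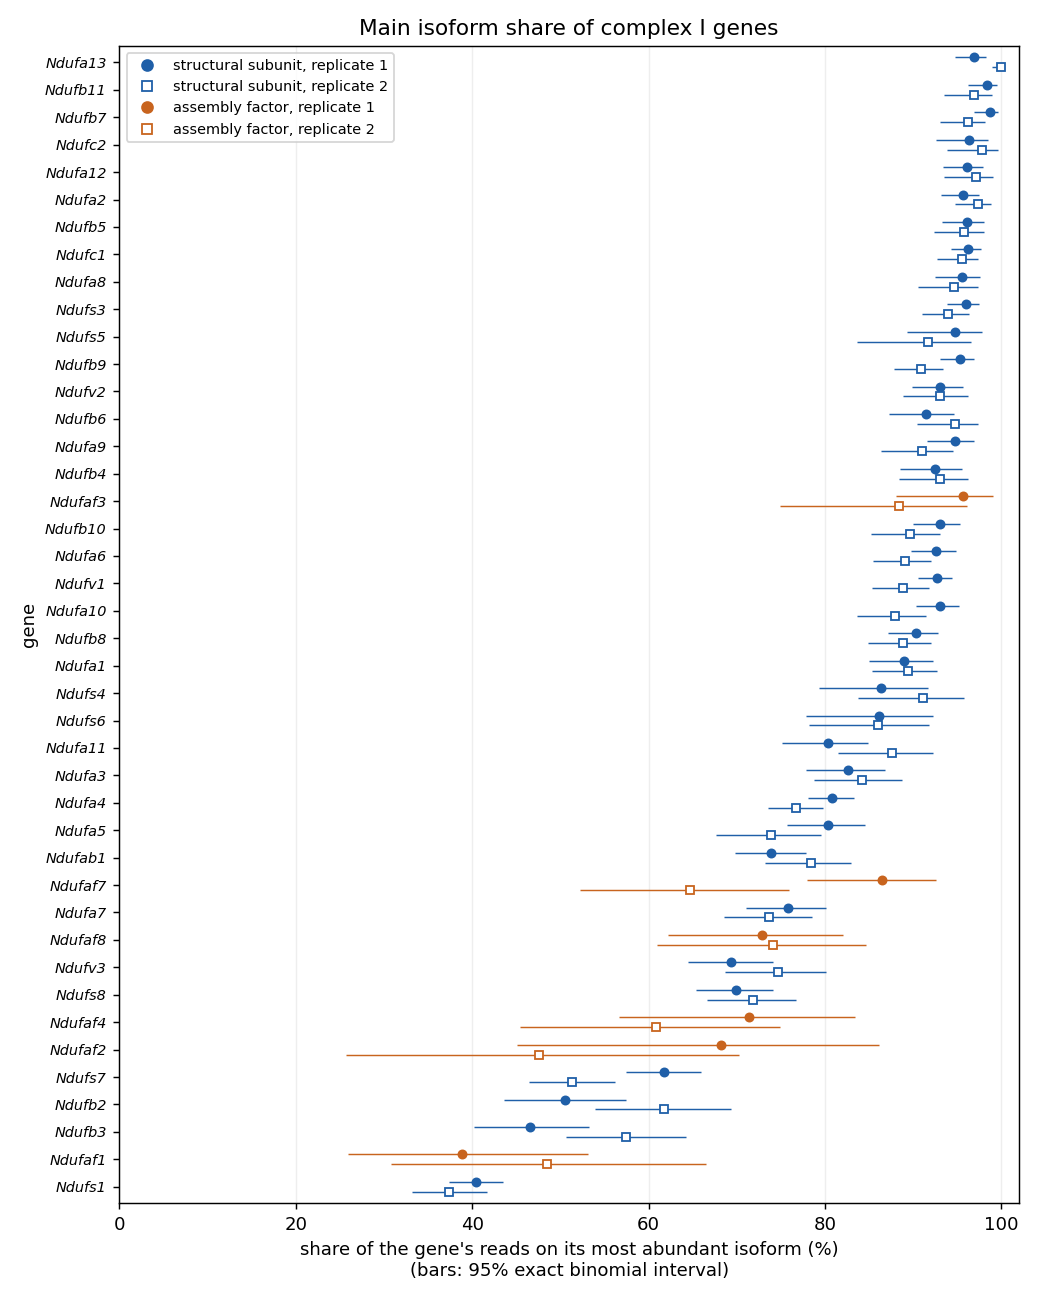
Share of a gene's reads on its most abundant isoform, in percent, for genes that reached the read minimum. Filled circles are replicate 1 and open squares below them replicate 2, with 95% exact binomial intervals, structural subunits in blue and assembly factors in orange. By mean of both libraries the shares run down to Ndufs1, at 40.4% in replicate 1 and 37.4% in replicate 2. In replicate 1 alone Ndufaf1 was lower, at 38.9%.

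Sorted by what the reads match, 86.0% of the reads of these genes in replicate 1 and 83.7% in replicate 2 lay on annotated transcripts, against 77.2% and 73.2% over all genes. Incomplete matches, models that match only a part of an annotated transcript, some of them a single exon, took 9.18% and 11.7%. They include the main isoform of Ndufa13, with 408 and 341 reads, which holds its whole coding sequence. New combinations of annotated splice sites took 2.70% and 2.51%, models with an unannotated splice site took 1.38% and 1.47%, and models classed as Genomic, which match no annotated splicing, took 0.747% and 0.543%. Of annotated-transcript reads, 98.9% in replicate 1 and 98.2% in replicate 2 were on protein-coding transcripts. Retained-intron transcripts held 0.562% and 1.17%, and transcripts annotated for nonsense-mediated decay 0.352% and 0.414%. The clearest such case was Ndufa7, whose 2-exon retained-intron transcript had 43 of 364 reads in replicate 1 and 48 of 316 in replicate 2, and whose transcript annotated for decay had 18 and 18.

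Ndufs1 had the lowest main isoform share by mean of both libraries, and its reads varied at a pair of places in the 5′ untranslated region. Its first exon ends at either of 2 donor sites 158 nt apart, and an extra exon of 104 nt (chr1:63172154-63172257) is either spliced in or skipped, both upstream of the coding sequence. Of reads that reached both places, the short first exon without the extra exon had 436 of 979 in replicate 1 and 214 of 488 in replicate 2. The long first exon without it had 261 and 129 reads. With the extra exon, the short first exon had 153 and 94 reads and the long one 129 and 51. Inclusion of the extra exon was 28.8% (interval 26.0 to 31.8%) in replicate 1 and 29.7% (interval 25.7 to 34.0%) in replicate 2. Among reads with the short first exon inclusion was 26.0% and 30.5%, and among reads with the long one 33.1% and 28.3%, with intervals that overlap in both libraries. The full-length forms with the extra exon are not annotated transcripts. They had 145 and 93 reads with the short first exon and 124 and 48 with the long one, and were the only new combinations of annotated sites in complex I genes with at least 5 reads in both libraries. All 4 combinations encode the same protein of 2181 coding nt. Models that hold that coding sequence whole took 94.0% of Ndufs1 reads in replicate 1 and 91.5% in replicate 2.

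Ndufv3, an accessory subunit beside the flavin-binding Ndufv1, was the only gene with a splice choice inside its coding sequence by the limits used, introns that share a splice site with at least 10 reads and 10% of the reads there. A large exon of 1092 nt, or 364 codons (chr17:31527310-31528401, plus strand), divides a short form of 312 coding nt from a long form of 1404 coding nt. It was included in 96 of 359 reads in replicate 1 (26.7%, interval 22.2 to 31.6%) and in 52 of 233 in replicate 2 (22.3%, interval 17.1 to 28.2%), and the libraries did not differ in Fisher's exact test (p = 0.244). The junctions that tell the forms apart are shown 5′ to 3′ from the GENCODE M21 transcripts, 30 bases to each side, with the bases of the large exon in capitals. The short form joins the exon that ends at 31521692 to the one that starts at 31531110, and the long form enters and leaves the large exon between them.
Ndufv3 short form: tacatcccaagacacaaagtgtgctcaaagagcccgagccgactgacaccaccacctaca
Ndufv3 long form, into the large exon: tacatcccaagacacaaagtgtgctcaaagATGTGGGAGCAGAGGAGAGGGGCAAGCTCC
Ndufv3 long form, out of the large exon: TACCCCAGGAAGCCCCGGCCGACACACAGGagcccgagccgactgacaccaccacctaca

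Splice choices were found in 6 of the 45 genes, and in the other 5 they lay outside the coding sequence. Ndufaf1 used 3 donor sites. Their introns held 22, 21 and 10 of 54 reads in replicate 1 and 17, 10 and 3 of 31 in replicate 2. Its main isoform held 38.9% of reads in replicate 1 and 48.5% in replicate 2. Ndufb2 used 2 donor sites 4 nt apart, and the upstream one had 124 of 212 spliced reads in replicate 1 (58.5%) and 108 of 165 in replicate 2 (65.5%). Ndufs8, a core iron-sulfur subunit, used 2 introns at its 5′ end, and the longer one of 963 nt held 76.2% and 78.9%. Ndufab1, the mitochondrial acyl carrier protein, which also serves fatty acid synthesis, had a last intron of 622 nt in 75.5% of reads in replicate 1 and 82.0% in replicate 2, and one of 3247 nt in 17.3% and 11.2%. It also had the only isoform with an unannotated splice site and at least 5 reads in both libraries, with 30 and 14 reads, whose new site lies in the last exon outside the coding sequence.

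A model that spans an annotated coding sequence with the same introns was counted as coding-complete, with all its reads. The ends of single reads were not examined. Such models held 14039 of 15520 reads in replicate 1, or 90.5%, and 9375 of 10676 in replicate 2, or 87.8%. The share was 90.7% and 88.2% over structural genes, and 83.1% and 72.9% over assembly factors. In 41 of the 45 genes, 1 coding form held at least 95% of the coding-complete reads in each library. The other 4 were Ndufv3, Ndufa6, Ndufa11 and Ndufaf2. Ndufaf2 is among them through 1 read per library on its other form, beside 15 reads on the main form in replicate 1 and 10 in replicate 2. Beside its main form of 393 coding nt, Ndufa6 had forms of 216 and 123 coding nt. They had 18 and 13 of 446 reads in replicate 1, and 22 and 19 of 384 in replicate 2. Models were counted whatever their annotated type, and the annotated retained-intron transcript Ndufa6-206 had 3 and 12 reads. In replicate 2 reads of Ndufa6-206 are part of the 123 nt form, whose count is thus not of coding transcripts alone.
Ndufa11, a membrane arm subunit, was read in its form of 429 coding nt in 217 of 270 reads in replicate 1 and 141 of 161 in replicate 2. A form of 228 coding nt, Ndufa11-204, which starts exon 3 later by 40 bases, had 26 and 6 reads. The bases it lacks are given in capitals in the stretch across that junction of Ndufa11-201 (chromosome 17, from the exon that ends at 56721127 to the one that starts at 56721319).
Ndufa11-201: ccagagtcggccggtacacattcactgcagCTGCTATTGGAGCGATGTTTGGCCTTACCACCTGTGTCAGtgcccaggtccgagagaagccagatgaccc

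In Ndufb3, Ndufs7 and Ndufa4, most reads on models without a complete coding sequence lay on 1 model per gene. Other genes had such reads too, as Ndufa7 with 88 in replicate 1 and 83 in replicate 2, over several models. In Ndufb3 a model of the last exon alone (316 nt) held 111 of 238 reads in replicate 1 (46.6%, interval 40.2 to 53.2%) and 122 of 212 in replicate 2 (57.5%, interval 50.6 to 64.3%). With both libraries pooled it was the most abundant isoform of the gene. In replicate 1 alone the annotated Ndufb3-201 had more reads, with 123, while in replicate 2 it had 85. In Ndufs7 a model of the last 2 exons (246 nt) held 171 of 524 reads in replicate 1 (32.6%, interval 28.6 to 36.8%) and 169 of 417 in replicate 2 (40.5%, interval 35.8 to 45.4%). In Ndufa4 a model of the last 2 exons (281 nt) held 155 of 908 reads in replicate 1 (17.1%, interval 14.7 to 19.7%) and 150 of 722 in replicate 2 (20.8%, interval 17.9 to 23.9%). All 3 shares were higher in replicate 2, and at the minimum of 20 reads the main isoform share of none of the 3 genes passed Fisher's exact test. At 50 reads Ndufs7 did. In other genes too, incomplete matches of any kind that lack a complete coding sequence held over 10% of reads in both libraries. These genes included Ndufaf7 (11.5% and 27.9%, or 11 of 96 and 19 of 68 reads), Ndufa5 (15.2% and 20.9%), Ndufa3 (14.7% and 13.6%) and Ndufa1 (11.0% and 10.6%). In the deposited models each of the 3 parts starts at the first base of an annotated exon, which fixes 1 start for all its reads. The coding bases around that point are given from GENCODE M21 on mm10, 30 to each side of the exon junction, with those that the 3′ models keep in capitals.
Ndufb3-201, chr1:58591250-58595648 removed, plus strand: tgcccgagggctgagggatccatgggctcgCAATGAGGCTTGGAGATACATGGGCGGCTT
Ndufs7-201, chr10:80255137-80255923 removed, plus strand: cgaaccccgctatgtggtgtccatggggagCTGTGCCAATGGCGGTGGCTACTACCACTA
Ndufa4-205, chr6:11905263-11906019 removed, minus strand: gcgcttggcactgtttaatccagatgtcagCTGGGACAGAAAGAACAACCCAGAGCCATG

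**Figure D4:**
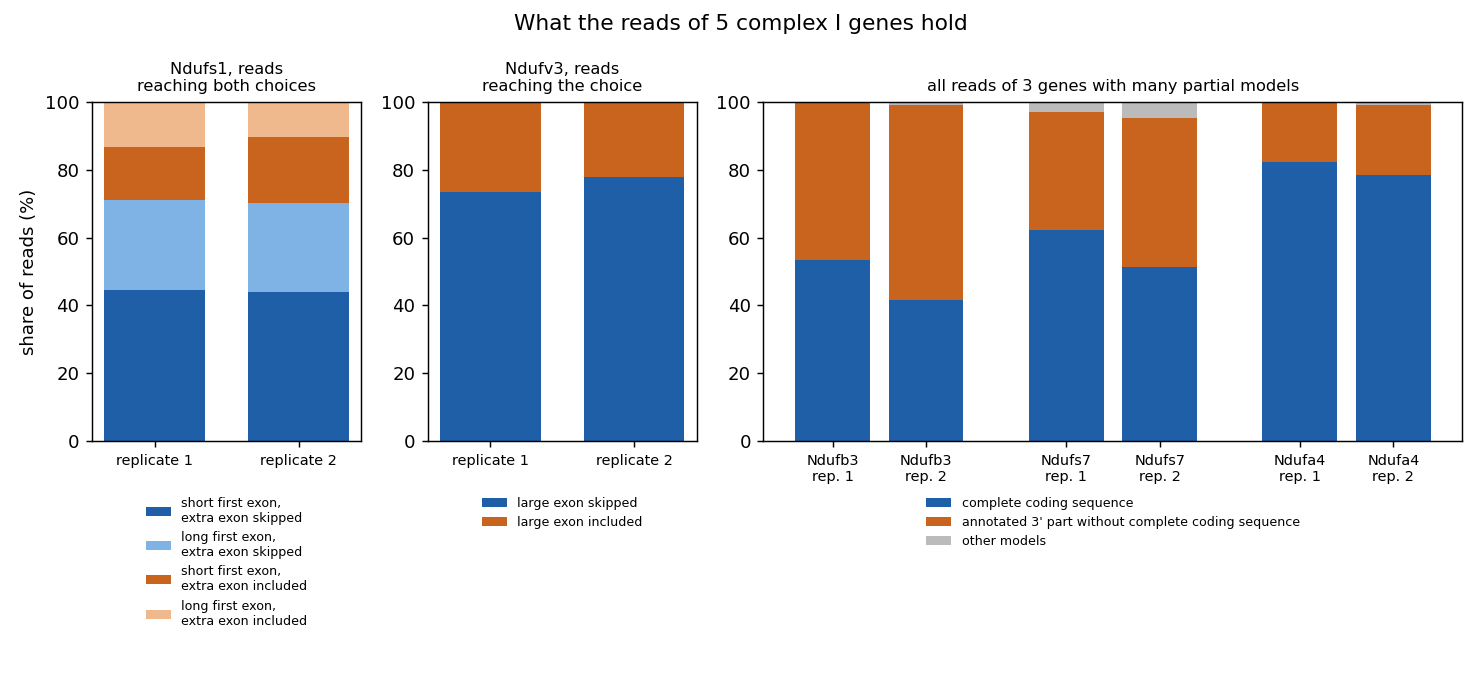
Shares of reads in percent, with replicate 1 left of replicate 2, as stacked bars without error bars. The left panel splits Ndufs1 reads by first exon and extra exon, and the middle panel Ndufv3 reads by the large exon. The right panel splits all reads of Ndufb3, Ndufs7 and Ndufa4 by whether their model holds the complete coding sequence. The extra exon of Ndufs1 is in 28.8% (replicate 1) and 29.7% (replicate 2) of reads. The partial reads of Ndufb3 reach 46.6% in replicate 1 and 57.5% in replicate 2. In the right panel, the bars marked as 3′ part count all incomplete matches without a complete coding sequence.

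Models classed as Genomic held less of the structural reads than of all gene reads, of which they took 3.54% in replicate 1 and 5.87% in replicate 2. Their share was higher in assembly factors. Of 415 assembly factor reads in replicate 1 it was 6.75% (interval 4.53 to 9.60%), and of 288 in replicate 2 it was 4.17% (interval 2.17 to 7.17%), against 0.583% (interval 0.468 to 0.717%) and 0.443% (interval 0.324 to 0.590%) of structural reads. In replicate 1 Ndufaf8 alone gave 17 of the 28 reads, on 1 single-exon model classed as Genomic, whereas its single-exon model in replicate 2, with 9 reads, was classed as an incomplete match. Without Ndufaf8 the shares of the other 7 assembly factors were 3.33% (interval 1.68 to 5.89%) and 5.22% (interval 2.72 to 8.94%), above the structural intervals, and with intervals that hold the share over all genes. All unannotated single-exon models together held 17 of 85 reads of Ndufaf8 in replicate 1 and 9 of 58 in replicate 2. For Ndufaf2 the counts were 5 of 22 and 5 of 21, and for Ndufaf7 8 of 96 and 17 of 68. A 2-exon processed transcript of Ndufaf4 had 9 of 49 and 12 of 46 reads. Of Ndufaf6 reads, 11 of 21 in replicate 1 and 5 of 5 in replicate 2 were coding-complete, too few to set its isoforms apart.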

How the data were processed

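Long-read RNA libraries of 2 adrenal gland samples were compared as 1 group. Per the file headers and a note beside the files, the authors deposited raw read counts per transcript model on mm10 with GENCODE M21, in tables that carry TALON field names. The aligner, versions and read filters are not given in the sources used here. Model lengths, exon positions and classes were taken as deposited. Counts were summed per annotated gene, without the ERCC spike-ins (18340 reads in replicate 1 and 15552 in replicate 2).

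Members and lists were chosen with earlier results of these data known. TMM factors (0.989 and 1.01) came from edgeR 4.0.16 in R 4.3.3. Genes with 10 or more reads in all were compared with a two-sided exact binomial test, and log2 ratios used a prior of 0.5 reads. The alternative test was edgeR's exact test with a common dispersion. The main isoform was that with most reads over both libraries. Its share was compared with Fisher's exact test in genes with 20 or more reads per library. Isoforms were matched by identifier or by intron chain, and single-exon models not in the annotation counted as 1 isoform per gene. P-values given as adjusted were adjusted by Benjamini-Hochberg over all genes tested. The p-value for the large exon of Ndufv3 is from a single test and was not adjusted. Splice choices needed at least 10 reads and 10% of the reads at a shared site.

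Coding sequences and printed bases came from the GENCODE M21 annotation and transcripts, and near copies from BLAST 2.17.0 at 90% identity and 80% coverage. Named genes were the 8 highest and 5 lowest structural genes, all assembly factors, all genes past a test, the largest ratio in each direction among genes with at least 100 reads, the 8 lowest main isoform shares, Ndufv3, new isoforms with at least 5 reads in both libraries, and of the other lists the top 3 genes and any with 0 reads. Ndufa6, Ndufa7, Ndufa11, Ndufb7, Ndufb11, Ndufa3, Ndufa5, Ndufb1-ps, Ndufa4l2, BC002163 and the marker genes of cortex, fat and muscle were named after their values were seen. A structural gene that these rules name is counted in every total but is not reported here by name or drawn. A likeness between genes over samples was not computed, since 2 libraries give no pattern. Alternatives covered DESeq2 1.42.0 size factors, total counts, spike-in totals, other read minimums, annotated transcripts alone, thinning to equal totals, levels per kb and other isoform tests. The steps were tested on simulated data. Python 3.11.15 was used with scipy 1.17.1, numpy 2.4.6, pandas 2.3.3 and matplotlib 3.10.9, and the random seed was 20211.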

Additional observations from a re-analysis of the deposited data

How the results depend on the processing

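No paired analysis was possible because the series has 1 group, whose replicates have no partners. Calls among the 45 genes, 3 higher and 6 lower in replicate 1, stayed within 1.5 times these counts with DESeq2 size factors (4 and 6), total counts (3 and 9), annotated transcripts alone (3 and 6), thinned reads (3 and 6) and, chosen after seeing the data, a p doubled from the smaller tail (3 and 6), where 5.33 to 6.71% of all genes passed as higher and 5.23 to 6.77% as lower. With no read minimum they were 3 and 5, against 3.34% and 3.29% of all genes, and with at least 50 reads 4 and 7 of 42, against 10.4% and 9.78%, so the background moves with this choice. Spike-in totals gave 16 and 0, against 20.0% and 2.36% of all genes, with Ndufa4 reversed at a log2 ratio of 0.09, and edgeR's exact test gave 0 and 0. The share of gene reads, 1.12%, was 1.27% on annotated transcripts alone and 1.10 to 1.14% with 1 library left out. The structural to assembly ratio of medians, 6.94 as the mean of both libraries, was 7.46 on annotated transcripts (without Ndufa13), 12.0 per kb, 6.69 without Ndufa4, 7.83 with means, and 6.82 to 7.07 with 1 library left out. Chosen after seeing the data, counting the 2 pseudogenes with reads as structural gave 6.43, and adding BC002163 to Ndufs5 gave 6.94. The median main isoform share, 89.5%, was 95.7% without incomplete matches and Genomic models, and 88.8 to 90.3% with 1 library left out. Fisher calls, 1 of 43, were 3 of 39 at 50 reads (4.75% of all genes), 1 at 10 reads (1.49%), 0 without incomplete matches and Genomic models (0.994%) and 0 by chi-square over all isoforms (0.780%). The share on annotated transcripts, 84.9%, was 86.0% as a mean over genes and 83.7 to 86.0% with 1 library left out. Depth limits the assembly factors most, of which Ndufaf5 and Ndufaf6 had too few reads for isoforms.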
